A study of Mus musculus with 10 samples.

Results

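The PGC-1 coactivators and the transcription factors that work with them were measured as mRNA in the hippocampus of mice bred to overexpress PGC-1α in neurons. The 10 genes described were the coactivators Ppargc1a, Ppargc1b and Pprc1, the nuclear receptors Esrra, Esrrg and Ppara, the factors Nrf1 and Gabpa, the mitochondrial factor Tfam and the deacetylase Sirt1. They are 10 of the 23462 genes that could be named on the array, and every gene probe whose RefSeq transcript belongs to one of them was kept. This gave 22 probes of 1 spot each, at least 1 for each gene.

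Both groups derive from PGC-1αf/f mice, which carry a PGC-1α transgene in the Rosa26 locus behind a floxed PGK-neo-STOP cassette. PGC-1αf/f littermates that lack Cre served as the controls, with the transgene silent. In nPGC-1α mice, Cre driven by the promoter of the neuronal gene Eno2 removes the cassette, so that presence of Cre and release of the transgene cannot be told apart here. All mice had a C57BL/6 background and were labelled as males of 12 weeks, and the comparison asks what the transgene changes in basal conditions. There were 10 one-colour Agilent arrays, 1 for each mouse and 5 for each group, so the p-values measure the spread between mice.

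PGC-1α is a coactivator: it does not bind DNA itself but is recruited by transcription factors and brings histone acetyltransferases and the Mediator complex to their target genes. Its best known partners are the estrogen-related receptors, the peroxisome proliferator-activated receptors, NRF1 and the GA-binding protein, which together control nuclear genes of the respiratory chain, fatty acid oxidation and mitochondrial DNA maintenance. Transcription of Tfam, whose protein packages and transcribes mitochondrial DNA, is one of the classical outputs of this circuit. In the brain, PGC-1α is known mainly for its roles in neuronal energy supply and in the handling of reactive oxygen species.

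A level is the log2 of the processed signal of a probe minus the log2 of the 75th percentile of all gene probes on its array, so that 0 is the 75th percentile. Each difference is the nPGC-1α mean minus the control mean on this log2 scale and was tested with limma, a linear model with a spread shared across probes. Of 56605 gene probes, 39142 were tested, those whose spots were marked well above background throughout 1 group or both. Of the 22 probes 17 passed, and all 10 genes had a tested probe. Where a gene had several, the one with the highest mean signal among those tested stands for the gene and is called its brightest probe.

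Array quality differed with the group. The share of gene spots well above background was 79.0% ± 2.79 in the controls and 71.2% ± 2.57 in nPGC-1α mice (SD, n = 5 each; exact permutation p 0.00794, which is the smallest that 5 against 5 arrays allow, and 0.0198 adjusted over 5 measures of array quality). The noise estimate of an array was 6.32 ± 1.54 in the controls and 13.8 ± 4.08 in nPGC-1α mice (exact permutation p 0.00794, adjusted 0.0198). The lowest level marked well above background was -7.28 ± 0.41 and -6.26 ± 0.35 (exact permutation p 0.0159, adjusted 0.0265). For the 75th percentile and the share of outlier spots the exact permutation p was 0.302 and 0.603. Replicates 1 to 4 of both groups shared slide 1, in different rows, and replicate 5 of both groups shared slide 2. All mice were labelled male, but a set of 3 Y-linked transcripts was detected on only 4 of the 10 arrays. These were control replicate 1 and nPGC-1α replicates 1, 3 and 5, called below the arrays with Y-linked transcripts. Eif2s3y, a Y-linked translation factor gene outside that set, lay between 1.18 and 1.43 on them, against -8.86 to -6.16 on the other 6. Its probe was marked well above background in 2 controls and 3 nPGC-1α mice. Xist, the RNA of the inactive X chromosome, lay between -5.80 and -4.91 on the 4 arrays with Y-linked transcripts and on PGC-1αf/f replicate 5. It lay between -3.28 and -2.43 on the other 5. The labelled cell type is neuron, but by the methods the RNA came from hippocampus. Of the markers, 8 of 8 for neurons and 8 of 8 for hippocampal subfields were well above background on all arrays. The same held for 6 of 6 markers each of astrocytes, oligodendrocytes, microglia and endothelium. It also held for 8 of 8 markers of choroid plexus and 5 of 7 of medial habenula, so that detection does not define the piece of tissue. Fewer cells of a type and less RNA per cell cannot be told apart in such tissue.

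None of the 10 genes passed the test at its brightest probe. Over all probes 1 passed an adjusted p of 0.05, which is 0.00255%, and no probe of these genes was among them. Of the 10 brightest probes, 0 were higher and 0 were lower at an unadjusted p of 0.05, against 3.39% of all probes that were higher and 8.52% that were lower. Of the 10 differences, 5 were above 0 and 5 below, with a median of -0.01 beside -0.02 over the 17597 named genes tested. The 95% intervals of the 10 brightest probes lay between -0.45 and 0.40. Among all 17 tested probes, 2 were higher at an unadjusted p of 0.05, a second probe of Esrrg and a second probe of Ppargc1b, and 0 were lower. The smallest adjusted p among the 17 was 0.357. None of the 13 probes with a value on every array had groups that did not overlap, where 2.74% of all such probes did (0.709% higher and 2.03% lower in nPGC-1α mice).

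**Figure D1:**
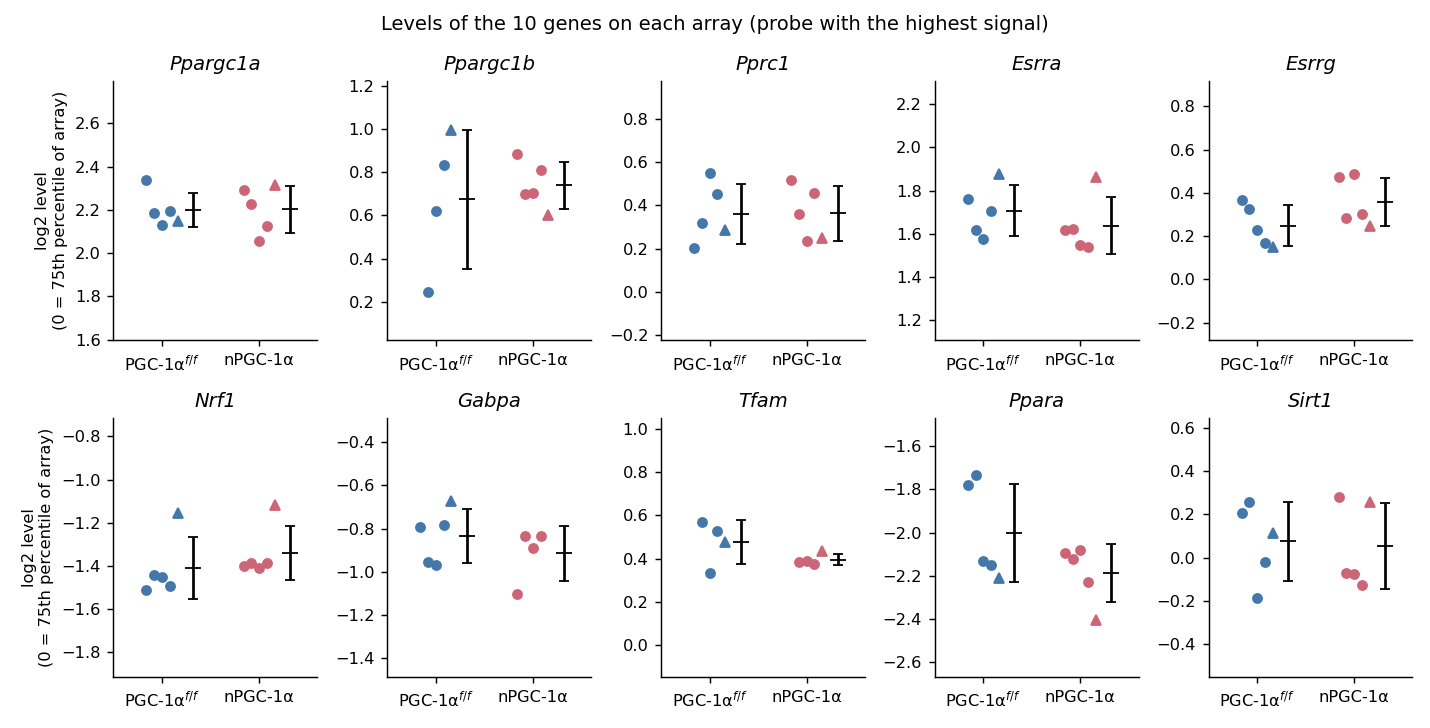
Level of the brightest probe of each of the 10 genes on each array, on the log2 scale where 0 is the 75th percentile of the array. Points are mice (circles slide 1, triangles slide 2), bars are the mean and SD of each group, every panel spans 1.2 log2 units, and the groups overlap in every panel.

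Ppargc1a encodes PGC-1α, the coactivator that the nPGC-1α mice were bred to overexpress, and its mRNA differed between the groups by less than the spread between mice. On the PGC-1αf/f arrays its level was 2.34, 2.19, 2.13, 2.19 and 2.15 in replicates 1 to 5. On the nPGC-1α arrays it was 2.29, 2.23, 2.06, 2.12 and 2.31. The groups overlapped throughout, with the highest value in a PGC-1αf/f mouse and the lowest in an nPGC-1α mouse. The means were 2.20 ± 0.08 and 2.20 ± 0.11 (SD, n = 5 each), and the difference of 0.00 corresponds to a fold of 1.00 with a 95% interval of 0.880 to 1.14 (limma unadjusted p 0.968, adjusted 0.990; exact permutation p 0.952). The other Ppargc1a probe was not tested, because its spot was an outlier on 5 of the 10 arrays. With those spots kept it differed by 0.09, with an interval of -0.14 to 0.32 (limma unadjusted p 0.429, adjusted 0.760). Whether either probe matches the transcript of the transgene was not tested, because no file used here holds the probe sequences, so the directions given for the other genes rest on the labels.

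The genes that make up the transgene design were also measured. Eno2, the neuronal enolase whose promoter drives Cre, differed by -0.03 with an interval of -0.22 to 0.16 (limma unadjusted p 0.733). The noncoding RNA of the Rosa26 locus, Gt(ROSA)26Sor, which has 3 probes well above background on all 10 arrays, differed by -0.06 at its brightest probe, with a wider interval of -0.48 to 0.36 (limma unadjusted p 0.769). The other 2 probes of that locus differed by -0.10 and -0.15, and neither passed an unadjusted p of 0.05.

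Ppargc1b encodes PGC-1β, a paralog of PGC-1α that acts through many of the same receptors. At its brightest probe the PGC-1αf/f arrays with a value, replicates 2 to 5, lay at 0.25, 0.62, 0.83 and 1.00. The nPGC-1α arrays lay at 0.88, 0.70, 0.70, 0.81 and 0.60, inside the range of the controls. The difference was 0.07 with an interval of -0.26 to 0.40 (limma unadjusted p 0.668).

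The second Ppargc1b probe, A_65_P02810, read higher in nPGC-1α mice before adjustment. Its level was -0.87, -1.28, -0.61, -0.63 and -0.88 on the PGC-1αf/f arrays and -0.54, -0.50, -0.40 and -0.66 on nPGC-1α replicates 2 to 5. The groups overlapped in the interval from -0.66 to -0.61, and the remaining nPGC-1α arrays lay above every control. The difference of 0.33 (SE 0.14) corresponds to a fold of 1.26 with an interval of 1.01 to 1.57 (limma unadjusted p 0.0438, adjusted 0.407; exact permutation p 0.0556). PGC-1αf/f replicate 2 was the lowest array at both Ppargc1b probes. Without it the brightest probe differed by -0.08 and the second probe by 0.22 (limma unadjusted p 0.535 and 0.0748). On that array the median of the centred levels of the 6 tested medial habenula markers, of 7 in the list, was 1.62, against -0.21 to 0.09 on the other 9. The part of neighbouring tissue in the Ppargc1b levels was not tested.

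Pprc1 encodes the PGC-1-related coactivator, which is induced in growing cells. Its level was 0.20, 0.32, 0.55, 0.45 and 0.29 on the PGC-1αf/f arrays and 0.52, 0.36, 0.23, 0.46 and 0.25 on the nPGC-1α arrays. These ranges nearly coincide, and the difference was 0.00 with an interval of -0.21 to 0.22 (limma unadjusted p 0.988). Its other probe was not tested, as it stood well above background in 2 controls and in 0 nPGC-1α mice.

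Esrra encodes the estrogen-related receptor alpha, an orphan nuclear receptor through which PGC-1α acts on oxidative phosphorylation genes. It has a single probe, which read 1.76, 1.62, 1.57, 1.71 and 1.87 on the PGC-1αf/f arrays and 1.62, 1.62, 1.55, 1.54 and 1.86 on the nPGC-1α arrays. The highest array of each group was its replicate 5, the one on slide 2. The difference was -0.07 with an interval of -0.28 to 0.14 (limma unadjusted p 0.489).

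Esrrg encodes the related receptor gamma, which is highly expressed in brain, heart and oxidative muscle. At the brightest Esrrg probe the PGC-1αf/f arrays lay at 0.37, 0.33, 0.23, 0.17 and 0.15 and the nPGC-1α arrays at 0.47, 0.28, 0.49, 0.30 and 0.25. The nPGC-1α replicates 1 and 3 lay above all controls, and the other 3 lay within their range. The difference was 0.11 with an interval of -0.08 to 0.30 (limma unadjusted p 0.240).

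The second Esrrg probe, A_55_P2006499, had the smallest p of the 17 probes. Its level was -1.64, -1.55, -1.35, -1.51 and -1.44 on the PGC-1αf/f arrays and -1.40, -1.22, -1.05, -1.37 and -1.24 on the nPGC-1α arrays. All 5 nPGC-1α mice lay above the mean of the controls, and the groups overlapped only through PGC-1αf/f replicate 3. The difference of 0.24 (SE 0.10) corresponds to a fold of 1.18 with an interval of 1.02 to 1.37 (limma unadjusted p 0.0277, adjusted 0.357; exact permutation p 0.0238). With the levels averaged over both probes Esrrg differed by 0.18 (limma unadjusted p 0.0321, adjusted 0.422). Marker lists of cell types also moved. The median of the centred levels of the 5 tested microglia markers, of 6 in the list, lay between -0.02 and 0.06 on the PGC-1αf/f arrays. On the nPGC-1α arrays it lay between -0.15 and -0.03, with 6 of 6 well above background on all arrays. The single microglia markers differed by -0.30 to 0.18, so not all were lower, and 1 was lower at a limma unadjusted p below 0.05. The median difference was 0.29 over the oligodendrocyte markers and 0.20 over the endothelium markers. Neither the part of these cell types nor that of the difference in array quality was tested.

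**Figure D2:**
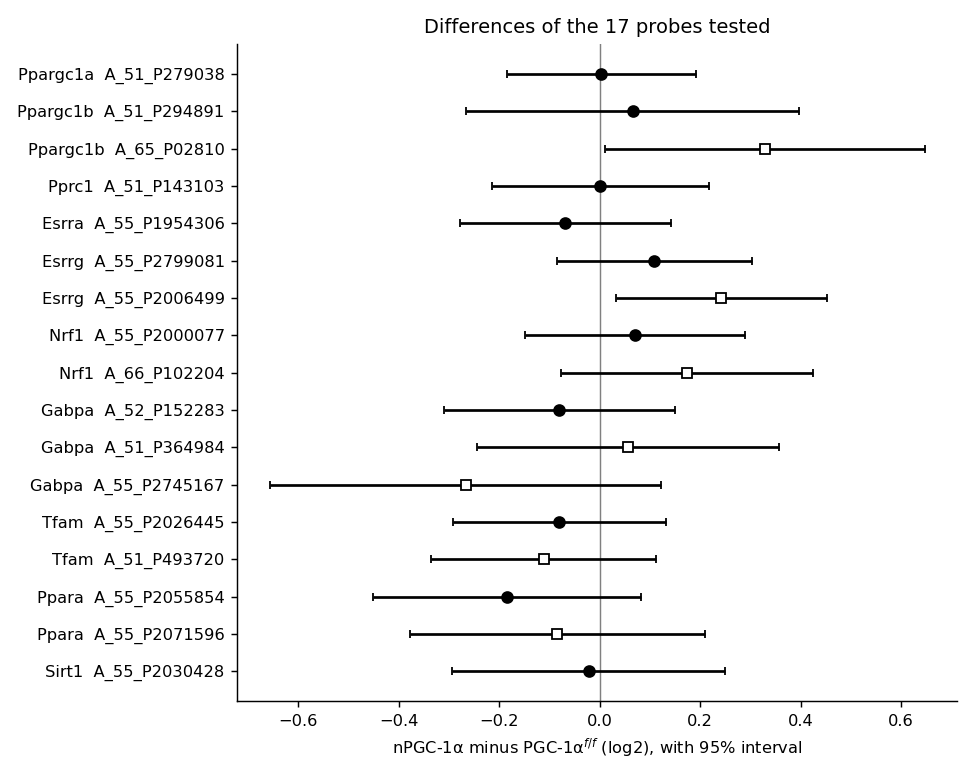
Difference nPGC-1α minus PGC-1αf/f on the log2 scale with its 95% interval for each of the 17 tested probes, with filled circles for the brightest probe of a gene and open squares for its other probes. The intervals of the second probes of Ppargc1b and Esrrg lie above 0, and the other 15 include it.

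Ppara encodes the peroxisome proliferator-activated receptor alpha, a receptor for fatty acids that controls their oxidation. At its brightest probe the level was -1.78, -1.73, -2.13, -2.15 and -2.21 on the PGC-1αf/f arrays and -2.10, -2.12, -2.08, -2.23 and -2.40 on the nPGC-1α arrays. PGC-1αf/f replicates 1 and 2 stood above the other 8 arrays, among which the groups were mixed. The difference of -0.18 had the largest size among the brightest probes, with an interval of -0.45 to 0.08 (limma unadjusted p 0.155). The second Ppara probe placed the same 2 controls highest, at -2.21 and -2.34, and differed by -0.08 with an interval of -0.38 to 0.21 (limma unadjusted p 0.542).

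Nrf1 encodes nuclear respiratory factor 1, which binds GC-rich sites in many nuclear genes for mitochondrial proteins. At its brightest probe the level was -1.51, -1.44, -1.45, -1.49 and -1.16 on the PGC-1αf/f arrays and -1.40, -1.38, -1.41, -1.38 and -1.12 on the nPGC-1α arrays. On slide 1 the 4 nPGC-1α mice lay above the 4 controls, and the pair on slide 2 lay above all of these. The controls of slide 1 filled row 1 and its nPGC-1α mice row 2, so a row effect would look the same as a group effect. How often other probes split in this way on slide 1 was not counted. The difference was 0.07 with an interval of -0.15 to 0.29 (limma unadjusted p 0.492). It was 0.08 on slide 1 alone and 0.07 with slide as a block (limma unadjusted p 0.332 and 0.315), while it was 0.00 over the 6 arrays without Y-linked transcripts and 0.20 over the 4 with them, of which 1 is a control (limma unadjusted p 0.998 and 0.437). Leaving out control replicate 1, control replicate 5 or nPGC-1α replicate 5 gave 0.05, 0.13 and 0.02. The second tested probe differed by 0.17 with an interval of -0.08 to 0.42 (limma unadjusted p 0.156). Of its other 2 probes, A_55_P2481764 was well above background on 0 of the 10 arrays and A_55_P2506320 was marked as an outlier on all 10, so that neither was tested. With the outlier spots kept A_55_P2506320 differed by 0.01, with an interval of -0.26 to 0.27.

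Gabpa encodes the DNA-binding subunit of the GA-binding protein, also called nuclear respiratory factor 2. At its brightest probe the level was -0.79, -0.95, -0.97, -0.78 and -0.67 on the PGC-1αf/f arrays and -1.10, -0.84, -0.89 and -0.83 on nPGC-1α replicates 1 to 4. All but the lowest nPGC-1α value lay within the range of the controls. The difference was -0.08 with an interval of -0.31 to 0.15 (limma unadjusted p 0.455).

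The other Gabpa probes went different ways. A_51_P364984 differed by 0.06 with an interval of -0.24 to 0.36 (limma unadjusted p 0.686). A_55_P2745167, the dimmest of the 17 probes, stood well above background in 5 controls and in 1 nPGC-1α mouse, so it was tested only through the controls. The lowest level marked well above background averaged -7.28 on the control arrays and -6.26 on the nPGC-1α arrays. The p-values of this probe are therefore given as a description and not as support for a group difference. It read -6.23, -6.47, -6.22, -6.05 and -6.79 in the controls and -6.78, -6.36, -6.54, -6.33 and -7.08 in nPGC-1α mice, and differed by -0.27 with an interval of -0.66 to 0.12 (limma unadjusted p 0.160). With slide as a block the same difference had an unadjusted p of 0.0428 and an adjusted p that did not pass, and without PGC-1αf/f replicate 5 it was -0.38 (limma unadjusted p 0.0451). Over the 6 arrays without Y-linked transcripts it was 0.04 (limma unadjusted p 0.864), and over the 4 with them, with 1 control, -0.57 (limma unadjusted p 0.0932).

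Tfam encodes the mitochondrial transcription factor A. At its brightest probe replicates 2 to 5 lay at 0.57, 0.34, 0.53 and 0.48 in PGC-1αf/f mice and at 0.38, 0.39, 0.38 and 0.43 in nPGC-1α mice. The nPGC-1α mice were tightly grouped inside the range of the controls, below 3 of them and above the other. The difference was -0.08 with an interval of -0.29 to 0.13 (limma unadjusted p 0.412). The second probe read 0.54, 0.53, 0.18, 0.33 and 0.51 against 0.51, 0.31, 0.21, 0.29 and 0.22, and differed by -0.11 with an interval of -0.33 to 0.11 (limma unadjusted p 0.297).

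Sirt1 encodes a deacetylase that depends on NAD+ and acts on PGC-1α. Its level was 0.21, 0.26, -0.19, -0.02 and 0.11 on the PGC-1αf/f arrays and 0.28, -0.07, -0.08, -0.13 and 0.26 on the nPGC-1α arrays. Each group held both high and low mice, and the difference was -0.02 with an interval of -0.29 to 0.25 (limma unadjusted p 0.863). The other Sirt1 probe was well above background on 0 arrays and was not tested.

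There were 6 genes with more than 1 tested probe, which gave 8 pairs of probes, and the differences of a pair had the same sign in 6 of them. The exceptions both involved Gabpa A_51_P364984. As a description over arrays that share slides and tissue pieces, the probes of Tfam had the highest correlation over all arrays with a value (Pearson r 0.78, Spearman rho 0.79, n = 8 arrays), with r 0.76 without the 2 arrays farthest from the median. On slide 1 alone r was 0.87 for Tfam (n = 6), 0.92 for Ppara (n = 8) and 0.92 for Ppargc1b (n = 6). The exact permutation p of the Tfam pair was 0.0244 for r and 0.0279 for rho, or 0.195 and 0.223 after adjustment over the 8 pairs. The 2 Ppara probes had r 0.59 and rho 0.52 over 10 arrays. For this pair r was -0.37 without the 2 arrays farthest from the median and 0.92 over the 8 arrays of slide 1, so that it depends on which arrays are included. The 2 Esrrg probes were only weakly related (r 0.28, rho 0.10, n = 10), and the 2 tested Nrf1 probes had r 0.02 and rho 0.15 over all 10 arrays though r was 0.69 over the 8 arrays of slide 1. The permutation p of the 7 pairs other than Tfam lay between 0.0717 and 0.953 for r and between 0.134 and 0.786 for rho, so that no pair passed after adjustment.

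The brightest Nrf1 probe, Esrra and a dim Gabpa probe differed between the slides at a limma unadjusted p below 0.05. A larger difference between slides than between groups was not particular to them, since Sirt1, for 1, differed by 0.15 between slides and by -0.02 between groups. This contrast was chosen after the values were seen, and slide 2 holds 1 mouse of each group. With group in the fit, the brightest Nrf1 probe was 0.30 higher on slide 2, with an interval of 0.11 to 0.48 (limma unadjusted p 0.00517, adjusted 0.127). Esrra was 0.25 higher (interval 0.04 to 0.45, limma unadjusted p 0.0237, adjusted 0.215). Gabpa A_55_P2745167 was 0.56 lower, as a difference of -0.56 with an interval of -0.88 to -0.24 (limma unadjusted p 0.00287, adjusted 0.108). These are 3 of 17 probes, a share near the 17.1% of all probes that passed an unadjusted p of 0.05 between slides. A slide difference is therefore not particular to these genes. Of all probes 0.0461% passed an adjusted p. The Gabpa probe was tested only through the controls. The second Nrf1 probe differed by -0.09 and Ppargc1a by 0.04 between slides.

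**Figure D3:**
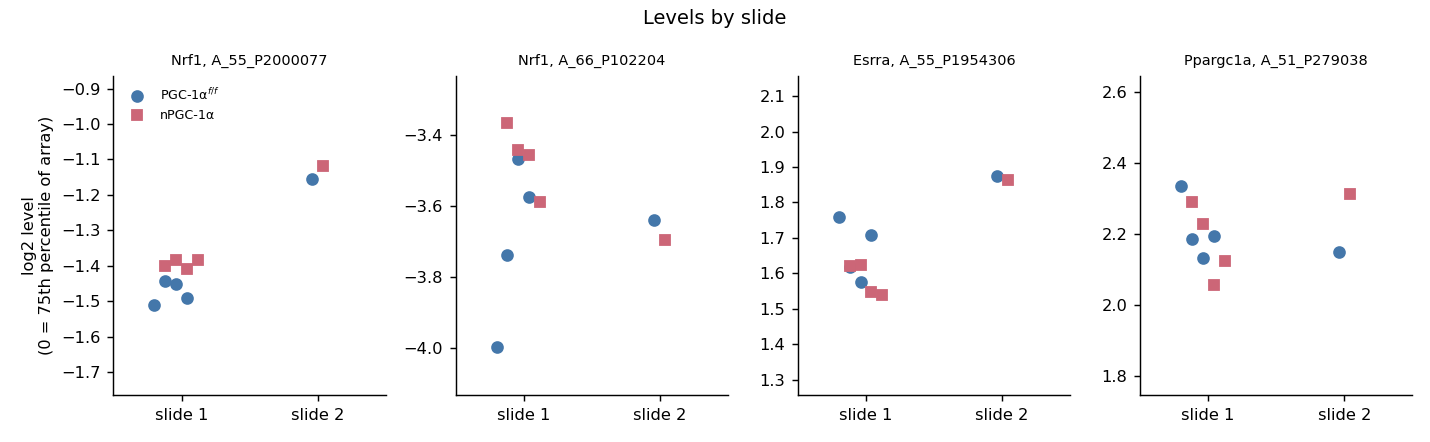
Levels of both tested Nrf1 probes, of Esrra and of Ppargc1a on slide 1 (8 arrays) and slide 2 (2 arrays), on the log2 scale where 0 is the 75th percentile of the array. The slide 2 arrays lie at -1.16 and -1.12 at the brightest Nrf1 probe, above -1.51 to -1.38 on slide 1, and the second Nrf1 probe and Ppargc1a show no such gap.

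The differences were recomputed under other scalings, filters, blocks and tests and with each array left out. The Ppargc1a difference stayed between -0.12 and 0.04 over 27 alternatives, with no unadjusted p under 0.547. The second Esrrg probe stayed above 0 in all 26 alternatives that gave it a value, from 0.17 to 0.41, and missed an unadjusted p of 0.05 in 7 of them, among which were those without PGC-1αf/f replicate 1 or 2 or nPGC-1α replicate 2 or 3 (0.19 to 0.23). The second Ppargc1b probe stayed above 0 in all 24 of its alternatives, from 0.22 to 0.39, and missed the threshold in 13, also without PGC-1αf/f replicate 1, 2 or 5 or nPGC-1α replicate 2, 3 or 4 (0.22 to 0.33).

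**Figure D4:**
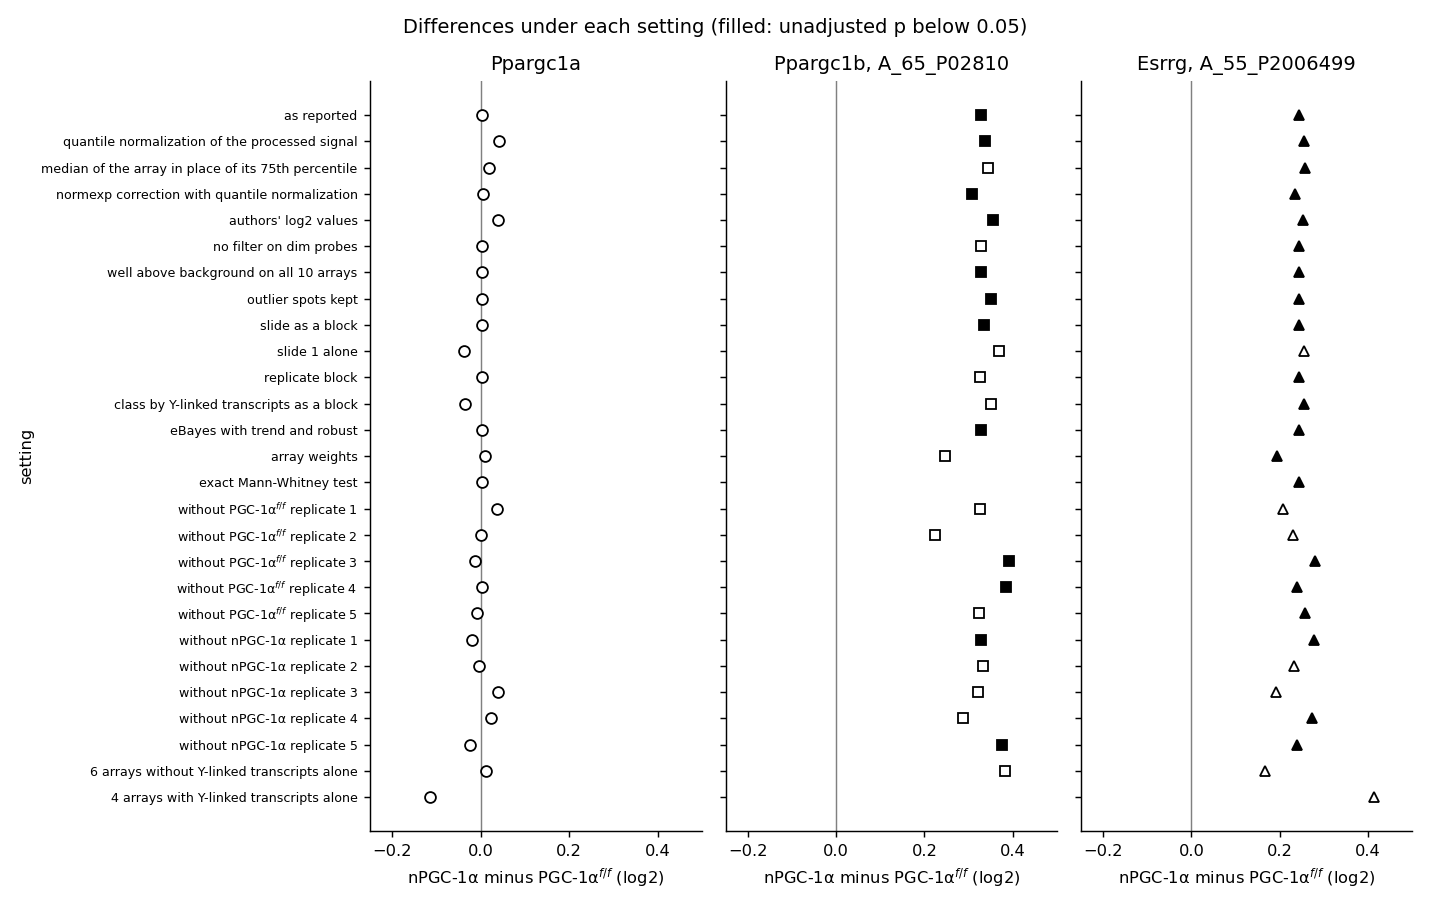
Difference nPGC-1α minus PGC-1αf/f on the log2 scale for Ppargc1a and the second probes of Ppargc1b and Esrrg, as reported and under each alternative setting that gave a value. Filled symbols have an unadjusted p below 0.05; Ppargc1a has 0 of these and spreads around 0, and the other probes stay above 0.

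The wider circuit was read from 4 gene lists, each gene by its brightest probe. Of 23 regulators of PGC-1α (kinases, acetyltransferases, deacetylases, corepressors and upstream factors), all 23 were tested, 1 was higher and 2 were lower at an unadjusted p of 0.05, and the median difference was -0.03. Of 23 other partner factors and coactivators, 21 were tested, 0 were higher and 1 was lower, with a median of -0.04. Of 13 factors of mitochondrial DNA transcription and replication, 12 were tested and 0 passed in either direction, with a median of -0.07. Of 22 known targets, 21 were tested, 0 were higher and 1 was lower, with a median of -0.08. None of the 4 lists held a gene past the adjusted threshold. Over all probes 3.39% were higher and 8.52% lower at the same unadjusted p, and the median over all named genes was -0.02.

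Among the regulators, Twist1, a repressor that binds PGC-1α, differed by 0.45 (limma unadjusted p 0.0327, adjusted 0.371). Its levels were -2.17 to -1.87 in the controls and -1.83 to -1.47 in 4 nPGC-1α mice, with nPGC-1α replicate 2 at -0.80, and without that mouse the difference was 0.27 (limma unadjusted p 0.0409). Crtc2, a coactivator of CREB, differed by -0.19 (limma unadjusted p 0.0405, adjusted 0.398). Its groups did not overlap but nearly met, with the highest nPGC-1α mouse at 1.0918 and the lowest control at 1.1045. The nPGC-1α mice lay at 0.85 to 1.09, and the controls reached 1.29. Of all probes with a value on every array, 2.03% had no overlap and were lower in nPGC-1α mice. The other Crtc2 probe differed by 0.17, in the other direction. Creb1, the gene of the cyclic AMP response factor that drives Ppargc1a transcription, differed by -0.28 (limma unadjusted p 0.0471, adjusted 0.413). Its other 3 probes differed by -0.10, -0.66 and -0.13. The probe at -0.66 stood well above background in 5 controls and in 2 nPGC-1α mice, so it was tested only through the controls. Of 27 alternatives, Twist1 missed an unadjusted p of 0.05 in 6, Creb1 in 12 and Crtc2 in 17. Among these were the ones without PGC-1αf/f replicate 2 or 5 or nPGC-1α replicate 1 for Twist1 (0.39 to 0.44), those without PGC-1αf/f replicate 1 or 2 or nPGC-1α replicate 2, 3 or 4 for Creb1 (-0.28 to -0.20), and those without any one array other than PGC-1αf/f replicate 2 or nPGC-1α replicate 5 for Crtc2 (-0.21 to -0.16).

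Among the partners, Perm1, a muscle regulator induced by PGC-1 and estrogen-related receptors, differed by -0.43 (limma unadjusted p 0.0120, adjusted 0.283). Its single probe lay at -3.93 to -3.71 in the controls and at -4.75 to -3.88 in nPGC-1α mice. Pparg, the adipogenic receptor, differed by 0.31 with an interval of -0.13 to 0.75. In the mitochondrial DNA list the largest differences were those of the transcription termination factor gene Mterf1a, at -0.31 with an interval of -0.69 to 0.08, and of the ribosomal RNA methyltransferase gene Tfb1m, at 0.13 with an interval of -0.28 to 0.54. Leaving out 1 array moved Tfb1m between 0.01 (without PGC-1αf/f replicate 2) and 0.24 (without PGC-1αf/f replicate 3). Among the targets, Pdk4, the kinase that restrains pyruvate dehydrogenase, differed by -0.35 (limma unadjusted p 0.0333, adjusted 0.373), and Ucp3, a mitochondrial uncoupling protein gene, by 0.31 with an interval of -0.15 to 0.78, or by 0.16 without nPGC-1α replicate 3. Perm1 missed an unadjusted p of 0.05 in 3 of 27 alternatives, none of which left out a single array. Pdk4 missed it in 9, among them those without PGC-1αf/f replicate 1, 2 or 5 or nPGC-1α replicate 2 or 4 (-0.34 to -0.26). Pparg passed it in 5: without PGC-1αf/f replicate 1 or nPGC-1α replicate 5 (0.43 and 0.47), on slide 1 alone (0.47), with array weights (0.46) and over the 6 arrays without Y-linked transcripts (0.54). Over the 4 arrays with those transcripts it was -0.26. Mterf1a passed it in 2, without PGC-1αf/f replicate 4 (-0.43) and with the replicate number as a block (-0.31).

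**Figure D5:**
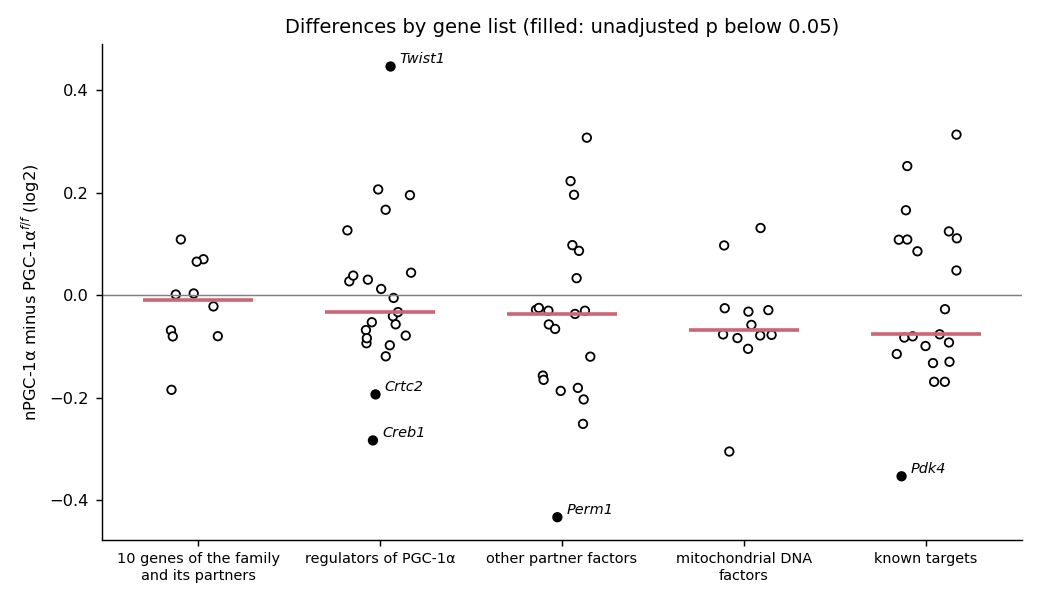
Difference nPGC-1α minus PGC-1αf/f on the log2 scale for the brightest probe of each gene, by list, with a horizontal bar at the median of the list. The 5 filled points have an unadjusted p below 0.05, and none of them is one of the 10 genes, whose points lie between -0.18 and 0.11.

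The promoters of these genes were searched for the sites of their own factors, because Tfam is known as a target of Gabpa and Nrf1. RefSeq promoters of GRCm38.p6, from 250 bases before to 50 after a start site, were given for 9 of the 10 genes, 13 promoters in all, with no entry for Ppargc1b. Both strands were searched with plain letters. The GABP motif CCGGAAG was found in 1 promoter each of Tfam and Gabpa, and in 8.86% of all 32851 promoters. The NRF-1 motif, GCGCA and GCGC with any 1 base between them, was found in 1 promoter of Ppara, where both strands matched, and in 4.6% of all promoters. The motif TNAAGGTCA of the estrogen-related receptors was found in 0 of the 13 and in 1.28% of all. The matches are shown with the motif in capitals, 5′ to 3′ on the strand of the gene, because GABPA and NRF1 are themselves among the factors described.
Tfam, chr10:71238060-71238116, minus strand, motif 47 to 41 bases before the start: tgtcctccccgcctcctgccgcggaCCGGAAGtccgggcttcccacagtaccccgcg
Gabpa, chr16:84835006-84835062, plus strand, motif in reverse complement 93 to 87 bases before the start: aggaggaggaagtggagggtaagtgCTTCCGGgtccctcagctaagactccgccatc
Ppara, chr15:85735720-85735775, plus strand, motif 31 to 22 bases before the start: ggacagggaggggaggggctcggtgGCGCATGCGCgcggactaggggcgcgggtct
Tfam, with this site, differed by -0.08, and Ppara by -0.18, neither beyond the spread between mice. A match of letters is not evidence that a factor binds there.

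Among 14894 named genes with a value on all arrays, the pattern of Ppargc1a over the 10 arrays was most like that of Cep164 (Pearson r 0.920), Clip4 (0.919) and Olfr1170 (0.919). These correlations are the highest of many and are given as a description.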

How the data were processed

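Total RNA of the hippocampus was hybridised to 1-colour (Cy3) Agilent mouse arrays. The scanner output was deposited with 1 fluorescence intensity per spot, background-subtracted and detrended by Feature Extraction (11.5.1.1 per the file headers) and not scaled between arrays. The authors' own table, made with GeneSpring, gives log2 values for 41606 probes and served as an alternative, with scale and probe choice not stated. It correlated with the scanner values of its array at 0.9987 to 1.00.

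Control spots and outlier spots were left out, spots of a probe were averaged, and the 75th percentile (3882.9 to 5253.2 intensity units) was set to 0 in log2. No gene spot was saturated, and the number of arrays limits the precision. Probes that stood well above background throughout a group, with at least 3 values per group, were tested with limma 3.58.1 in R 4.3.3 (lmFit, eBayes, two-sided, no covariate), with Benjamini-Hochberg adjustment over 39142 probes. The methods state no test for the arrays. Symbols came from RefSeq accessions (33767 of 56605 probes, 59.7%). The files do not state the build of the probes, so no probe position is given. Array measures were compared by exact permutation in R. Correlations of probe pairs and their permutation p came from Python 3.11.15 with scipy 1.17.1. The code of the limma fit was tested on simulated data.

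The 10 genes, the gene lists and the tests were chosen with earlier results of these data known. Named were the 10 genes, Eno2, Gt(ROSA)26Sor, Eif2s3y, Xist, the 3 genes most like Ppargc1a, and of each list at most 4 genes with unadjusted p below 0.05, or the 2 with the largest difference where fewer than 2 passed. Where 1 gene passed, the second is the next in size. The settings varied were the scaling, the background correction, the filter, use of the table of the authors, outlier spots kept, slide, replicate or class by Y-linked transcripts as a block, slide 1 alone, other variance models, array weights, the Mann-Whitney test, the mean over probes, each array left out, and, added after the data were seen, the arrays with and without Y-linked transcripts alone.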

Additional observations from a re-analysis of the deposited data

Results flagged for a closer look

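Of the 34 groups of values of the tested probes, 3 held an array that stood apart by Dixon's criterion, where chance gives about 5%. At the brightest Nrf1 probe, PGC-1αf/f replicate 5 was at -1.16 while the other 4 controls were at -1.51 to -1.44, and nPGC-1α replicate 5 was at -1.12 while the other 4 were at -1.41 to -1.38. At the Esrra probe, nPGC-1α replicate 5 was at 1.86 while the other 4 were at 1.54 to 1.62. These 3 values come from the 2 arrays of slide 2.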

How the results depend on the processing

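The count of probes past the adjusted threshold, 1 as reported, was 40 with the median of the array in place of the 75th percentile, 4619 without a filter on dim probes, 10 with array weights, 2 over the 6 arrays without Y-linked transcripts, 4 over the 4 arrays with them, and 0 with normexp, with the filter over all 10 arrays, with slide, replicate or Y-linked class as a block, with trend and robust, and by the Mann-Whitney test. Leaving out 1 array gave 0 to 3. The 4619 calls include dim probes, for which the arrays of the groups differed in noise (mean 6.32 in the controls and 13.8 in nPGC-1α mice). The part of this difference in those calls was not tested, so they are not read as differences between the mice. The count past an unadjusted p of 0.05, 4662 as reported, was 10748 without the filter, 2771 by the Mann-Whitney test and 1630 over the 6 arrays without Y-linked transcripts, and 3094 to 6000 with 1 array left out, the lowest without PGC-1αf/f replicate 2. The count of the 10 genes past it was 0 in all settings but the mean over probes, which gave 1 (Esrrg).

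Ppargc1a differed by -0.037 on slide 1 alone, -0.034 with the Y-linked class as a block, -0.12 over the 4 arrays with Y-linked transcripts, and -0.024 to 0.040 with 1 array left out, where its lowest p was 0.663. With array weights Pprc1 was at -0.060, Gabpa A_51_P364984 at -0.064, Sirt1 at 0.0055 and Tfb1m at -0.0014. Over the 6 arrays without Y-linked transcripts the Gabpa probes were at 0.0098 (A_52_P152283), -0.0030 (A_51_P364984) and 0.038 (A_55_P2745167), and over the 4 with them Pparg was at -0.26. None of these passed an unadjusted p of 0.05, and the cause was not tested. The 4 arrays with Y-linked transcripts include 1 control, which that fit assumes to vary like the nPGC-1α mice.
Leaving out 1 array moved Pprc1 between -0.039 and 0.048, Sirt1 between -0.088 and 0.024, the brightest Ppargc1b probe between -0.077 and 0.17 and Gabpa A_51_P364984 between -0.00046 and 0.14. Esrra, the Tfam, Nrf1, Esrrg and Ppara probes and the second Ppargc1b probe kept their direction under every alternative that gave them a value. The labels give replicate numbers but state no pairing, so the main fit did not pair the mice. With levels centred within each group, same-numbered arrays correlated at 0.0776 for replicate 2 and at 0.113 to 0.356 for the others. In 3 of the 5 pairs the best partner had the same number. Whether the numbers pair the mice was not tested. On slide 1 arrays of the same number shared a column, so a shared position is not separated from the number. With the replicate block 6486 probes passed a limma unadjusted p of 0.05, and the second Ppargc1b probe was at 0.32 (p 0.0522). Gabpa A_55_P2745167 (p 0.0429), tested only through the controls, and Mterf1a (p 0.0394) passed that threshold, with no other call changed among the genes named. The Mann-Whitney test was run on probes with a value on every array.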
